A study of Mus musculus with 8 samples.

Results

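The genes described here make cholesterol and fatty acids, sense and carry sterols, or export cholesterol from macrophages. They were taken as a list of 34 symbols, and 33 of them had a probe set with 1 gene symbol, out of 18193 genes named in this way on the arrays. Soat1, which esterifies cholesterol for storage, was not analysed here. Each gene stands for its probe set with the highest mean log2 intensity over all arrays. Bone marrow cells of wild type mice had been grown into bone marrow-derived macrophages (BMDM) in medium with serum and L929 supernatant, a source of macrophage colony stimulating factor, and were replated without that supernatant on day 7. For 24 hours they then received 100 ng/ml LPS with 20 ng/ml IFN-γ (M1 condition, 3 arrays), 20 ng/ml IL-4 (M2 condition, 2 arrays) or media alone (M0 condition, 3 arrays). LPS is sensed by Toll-like receptor 4, IFN-γ comes mainly from T and NK cells, and IL-4 is made in type 2 immune responses. The labels describe the arrays of a condition as biological replicates from different mice, whereas the methods mention in vitro replicates as well, so each n is a number of arrays and the p-values measure the spread between arrays, which may in part be technical.

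Macrophages make cholesterol from acetyl-CoA through mevalonate, farnesyl pyrophosphate, squalene and lanosterol. When the endoplasmic reticulum holds little sterol, the escort protein SCAP carries the precursors of SREBP transcription factors to the Golgi for cleavage, and the released factors switch on genes of sterol and fatty acid synthesis. Sterols and oxysterols keep SCAP in place through the INSIG proteins. Oxysterols also activate the nuclear receptor LXR, which switches on the exporters Abca1 and Abcg1, apolipoprotein E and other genes that lower cell cholesterol.

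The arrays were similar in scale. Their median intensities were 38.9 to 40.4 units, where a unit is the linear RMA intensity, and 39.8% to 40.6% of probe sets were above 64 units. Log2 intensities correlated at 0.994 to 0.997 between arrays of a condition. All 8 macrophage markers were above the array median in each condition and summed to 76000 to 77620 units on M1, 53160 to 56860 on M2 and 78570 to 81230 on M0 arrays. They were not steady between conditions (limma, adjusted p under 0.05). Against M0, Cd14 was higher in M1 (log2 difference 0.89), and Cd68 (-0.72) and Mertk (-0.85) were lower. In M2, Fcgr1 (-3.28), Cd14 (-1.66), Mertk (-1.08), Adgre1 (-1.08) and Lyz2 (-0.38) were lower. Markers of other cells stayed low, with sums of at most 386.5 units per list and array for neutrophils, T and NK cells, B cells, fibroblasts, adipocytes and erythroid cells. Those of 7 fibroblast and stroma markers summed to 241.2 to 386.5 units on M1 and 198.3 to 290.7 on M2, against 175.8 to 215.7 on M0 arrays. Among these markers Dcn (log2 difference 1.18, adjusted p = 0.000171), Lum (0.56, adjusted p = 0.0130) and the neutrophil gene Camp (0.56, adjusted p = 0.00544) were higher in M1, and Cd4 (-0.47, adjusted p = 0.0273) and Cd79b (-0.92, adjusted p = 0.00647) were lower. In M2, Camp (-0.48, adjusted p = 0.0385) and Cd4 (-0.57, adjusted p = 0.0273) were lower and Adipoq was higher. The condition means of Lum, Camp and Adipoq all lay below the array median. Of 15 cell division genes, 14 were lower in M1 than in M0 macrophages, with a median log2 difference of -2.24. In M2 none passed the limma test, while 2 were lower at an unadjusted p under 0.05 and the methods' t-test passed none with or without adjustment. The part of these differences in the results below was not tested. In such bulk RNA, fewer expressing cells and less RNA per cell cannot be told apart.

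Promoters of members whose values are described below are shown first, because 3 of these genes depend on SREBP in textbook accounts and the fourth, Ch25h, makes an oxysterol. The windows run from 250 bases before to 50 bases after the annotated start (RefSeq, GRCm38.p6). They are those of Hmgcs1, the synthase that makes HMG-CoA, at chr13:119690101-119690400 on the plus strand, Mvd, mevalonate diphosphate decarboxylase, at chr8:122443373-122443672 on the minus strand, Insig1, the sterol sensor that is itself an SREBP target, at chr5:28071162-28071461 on the plus strand, and Ch25h, cholesterol 25-hydroxylase, at chr19:34475099-34475398 on the minus strand. Capitals mark matches on either strand to the NF-Y box CCAAT or to the SREBP element TCACNCCAC.
Hmgcs1: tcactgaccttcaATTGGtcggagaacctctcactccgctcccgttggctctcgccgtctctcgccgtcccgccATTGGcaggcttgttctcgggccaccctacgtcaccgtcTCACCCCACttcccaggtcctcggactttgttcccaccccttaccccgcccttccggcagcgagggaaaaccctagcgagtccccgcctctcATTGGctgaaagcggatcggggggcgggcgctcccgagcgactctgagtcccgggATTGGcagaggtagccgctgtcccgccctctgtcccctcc
Mvd: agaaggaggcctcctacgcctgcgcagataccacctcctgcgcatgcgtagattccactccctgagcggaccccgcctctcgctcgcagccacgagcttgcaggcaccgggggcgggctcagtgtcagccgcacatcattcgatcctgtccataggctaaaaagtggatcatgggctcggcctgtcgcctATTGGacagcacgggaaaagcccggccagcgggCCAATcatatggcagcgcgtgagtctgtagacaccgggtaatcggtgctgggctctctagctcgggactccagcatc
Insig1: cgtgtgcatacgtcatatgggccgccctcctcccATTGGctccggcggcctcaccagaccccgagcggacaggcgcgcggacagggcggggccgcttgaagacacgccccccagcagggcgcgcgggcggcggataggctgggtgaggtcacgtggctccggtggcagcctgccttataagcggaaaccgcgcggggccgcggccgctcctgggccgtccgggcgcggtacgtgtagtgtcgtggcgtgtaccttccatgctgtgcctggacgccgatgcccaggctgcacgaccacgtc
Ch25h: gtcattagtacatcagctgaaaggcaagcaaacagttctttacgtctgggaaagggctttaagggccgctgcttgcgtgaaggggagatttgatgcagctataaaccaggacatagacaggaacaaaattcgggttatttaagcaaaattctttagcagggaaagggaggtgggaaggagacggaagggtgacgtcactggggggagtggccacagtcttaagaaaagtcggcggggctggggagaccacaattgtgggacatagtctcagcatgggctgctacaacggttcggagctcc

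Hmgcs1 had 1 match to TCACNCCAC, starting 137 bases before the start, together with 4 NF-Y boxes. It was the only 1 of the 25 listed genes with a window that held this form of the SREBP element, which was found for 1.44% of all 27025 genes with a window. NF-Y boxes were found for all 12 sterol synthesis enzymes with a window, against 41.1% of all 27025 genes with a window, and 8 of the 12 had 2 or more in a window, against 13.3% of all these genes. The Sp1 box GGGCGG, searched on both strands, was found for 11 of the 12 and for 38.2% of all genes with a window. Of the 13 other listed genes with a window, 8 (61.5%) had an NF-Y box and 9 (69.2%) an Sp1 box. NF-Y is a general activator that is known to act beside SREBP at sterol genes. Mvd had 2 NF-Y boxes, Insig1 had 1, and the Ch25h window held neither NF-Y box nor SREBP element. These matches describe letters in the windows and do not show binding.

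Across the 33 genes, 5 were higher and 6 were lower in M1 than in M0 macrophages, and 22 did not pass (limma, Benjamini-Hochberg adjusted p under 0.05 over 45037 probe sets, whatever the fold). This corresponds to 15.2% higher and 18.2% lower, against 13.7% and 11.5% of all named genes. In M2 macrophages 4 were higher, 3 were lower and 26 did not pass against M0, which is 12.1% and 9.09%, against 8.03% and 6.43% of all named genes. Among the 9856 named genes with a mean of at least 64 units, which is closer to the levels of these genes, the shares were 22.6% and 18.2% for M1 and 12.9% and 10.5% for M2. Against these, no share of the list called in either direction was larger, so the results concern single genes. The median log2 difference of the 33 genes was 0.05 in M1 and 0.12 in M2, and that of all named genes was 0.02 and 0.01. Both comparisons use the same M0 arrays. Ch25h and Scd2 were higher in both, and Apoe, Apoc1 and Mylip were lower in both. Mvd, Fdft1 and Insig2 passed as higher and Ebp, Dhcr7 and Scap as lower against M0 for M1, while Npc1 and Abcg1 passed as higher for M2. The remaining 20 genes passed in neither.

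**Figure D1:**
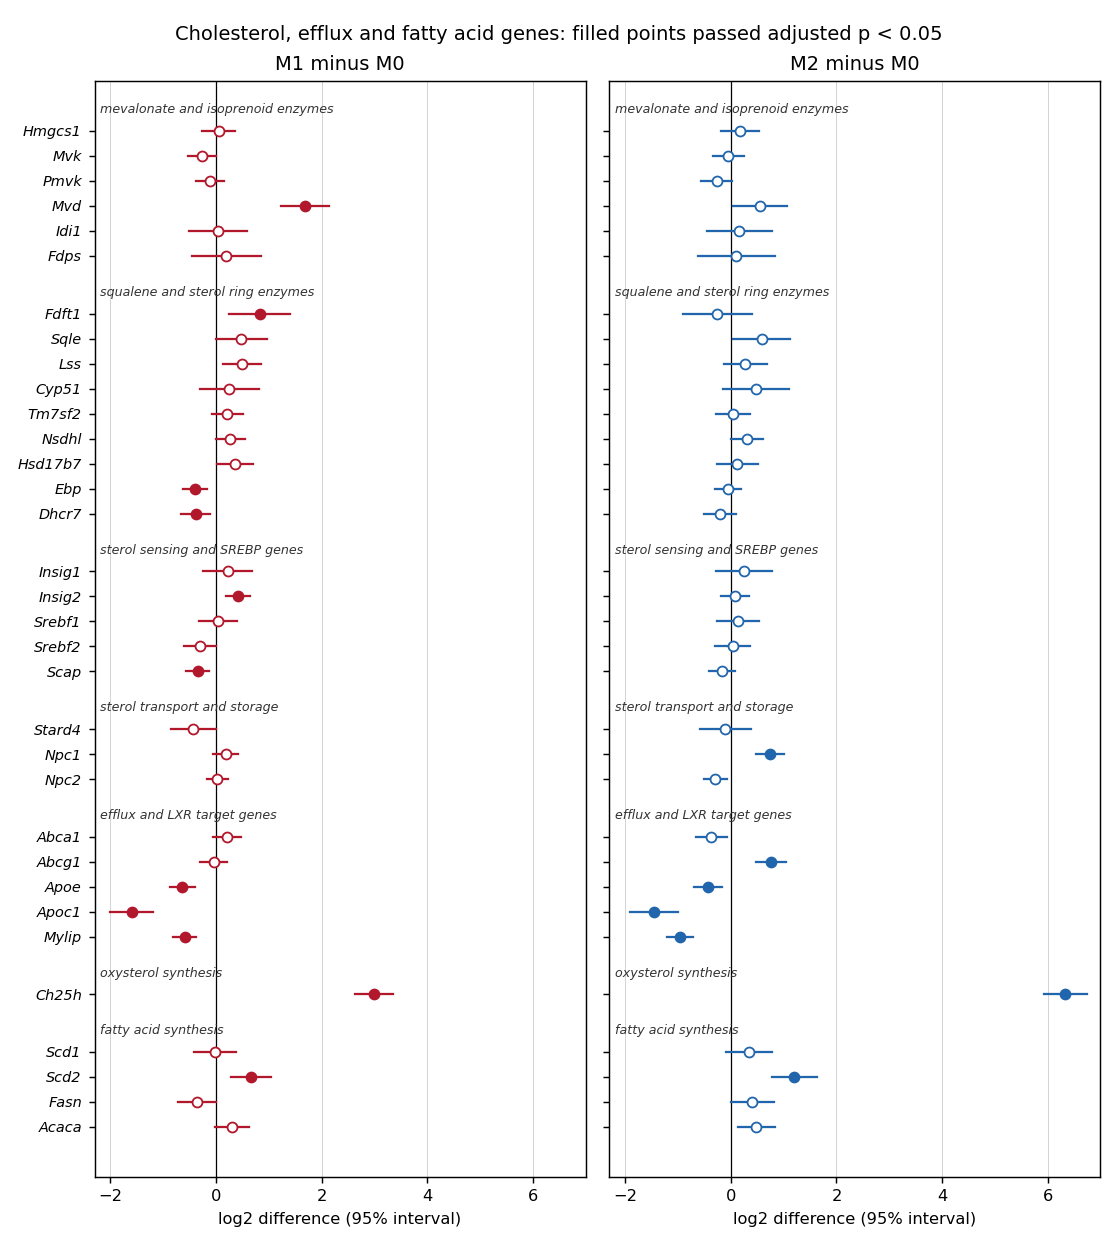
Log2 differences of M1 minus M0 (left) and M2 minus M0 (right) for the 33 genes, by role, with 95% intervals of the limma fit. Filled points passed the adjusted p threshold. Ch25h stands apart at 2.99 in M1 and 6.34 in M2, while the sterol synthesis enzymes lie between -0.40 and 1.69 in M1 and between -0.27 and 0.58 in M2.

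Ch25h, which hydroxylates cholesterol to an oxysterol that restrains SREBP processing and activates LXR, showed the widest differences of all 33 genes. It measured 125, 155 and 207 units on the M1 arrays and 1557 and 1670 units on the M2 arrays, against 20.1, 17.5 and 22.5 units on the M0 arrays. No array of one condition overlapped another, and the M0 values were below the array median. The log2 difference was 2.99 (SE 0.16, adjusted p = 1.15e-07) for M1 and 6.34 (SE 0.18, adjusted p = 9.66e-10) for M2 in limma. M1 was also lower than M2 directly, by a log2 difference of -3.35 (adjusted p = 6.92e-08). The sizes depend on the low M0 values, since raising all values under 64 units to 64 gave 1.31 for M1 and 4.66 for M2, with both calls kept. Of the genes that handle oxysterols further, Cyp27a1, the mitochondrial sterol 27-hydroxylase, measured 67.1, 101 and 74.2 units in M1 and 212 and 262 units in M2, against 505, 558 and 654 units in M0. It was thus lower in both activated states, by log2 differences of -2.84 (adjusted p = 1.22e-07) in M1 and -1.27 (adjusted p = 0.000432) in M2. Gpr183, the receptor for a dihydroxylated oxysterol made from the Ch25h product, was lower in M1 at -1.99 (adjusted p = 3.92e-06) and did not pass in M2 at 0.36 (adjusted p = 0.281). Cyp7b1, the next enzyme on the route to that ligand, lay at 7.08 to 8.61 units on all arrays, below the array median.

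Sterol synthesis enzymes did not move as a block. Of 15 enzymes, Mvd and Fdft1 were higher and Ebp and Dhcr7 were lower in M1 than in M0, and 11 did not pass. This is 13.3% in each direction, beside 13.7% and 11.5% of all named genes. Their median log2 difference was 0.22, with 11 enzymes above 0. In M2, limma called none of the 15, while 2 (Mvd and Sqle) were higher at an unadjusted p under 0.05. The methods' t-test passed 0 of the 15 with adjustment and 1 without, which was Pmvk, lower by a log2 difference of -0.27. The median was 0.12, with 10 enzymes above 0. These arrays leave room for changes, because the 95% intervals of the M2 differences reached from -0.91 to 1.12 and those of Mvd, Sqle and Cyp51 included a 2-fold rise.

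Among the mevalonate and isoprenoid enzymes, Mvd, which makes isopentenyl pyrophosphate, was the 1 of 6 that passed. It measured 404, 375 and 579 units in M1 and 156 and 265 units in M2, against 156, 147 and 114 units in M0. Every M1 array was above every other array, and the M2 arrays overlapped M0. The log2 difference was 1.69 (SE 0.21, adjusted p = 8.51e-05) in M1 and 0.56 (SE 0.23, adjusted p = 0.162) in M2, and M1 was higher than M2 by 1.13 (adjusted p = 0.00392), or by 0.75 (adjusted p = 0.0738) without M2 array 1. Its other probe set gave 1.60 (adjusted p = 2.48e-05) in M1 and 0.36 (adjusted p = 0.281) in M2. The lowest of the group in M1 was mevalonate kinase, Mvk, with 218, 244 and 278 units, against 324, 275 and 285 units in M0 (log2 difference -0.26, adjusted p = 0.174). The lowest in M2 was the next kinase, Pmvk, with 195 and 196 units, against 254, 233 and 222 units in M0 (log2 difference -0.27, adjusted p = 0.255). Hmgcs1, the brightest of the group, differed by 0.05 in M1 (95% interval -0.27 to 0.37) and 0.17 in M2 (95% interval -0.18 to 0.53).

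In the squalene and sterol ring steps, Fdft1 (squalene synthase) measured 205, 286 and 363 units in M1 and 91.6 and 186 units in M2, against 182, 179 and 117 units in M0. The M1 arrays were above the M0 arrays, with a log2 difference of 0.83 (SE 0.27, adjusted p = 0.0459), and above M2 by 1.08 (adjusted p = 0.0221). The name of this probe set marks it as 1 whose probes can cross-hybridise, and the other 3 probe sets of Fdft1, at 0.24 to 0.60, did not pass in M1. Without M0 array 1, 2 or 3 or M1 array 2 or 3 the adjusted p against M0 was 0.0539 to 0.182, and without M1 array 2 or 3 or M2 array 1 that against M2 was 0.0573 to 0.292, with a difference of 0.57 without the last. At the end of the pathway, Ebp, the sterol isomerase, measured 1166, 1420 and 1323 units in M1, against 1739, 1756 and 1645 units in M0 (log2 difference -0.40, adjusted p = 0.0142). Dhcr7, which performs the last reduction to cholesterol, measured 192, 255 and 235 units in M1, against 323, 302 and 263 units in M0 (log2 difference -0.38, adjusted p = 0.0452). For both genes the groups did not overlap. The adjusted p of Ebp was 0.0632 without M0 array 2 and 0.0634 without M1 array 1. That of Dhcr7 was 0.0574 to 0.176 without M0 array 1 or 2, M1 array 1 or 3, or either M2 array.

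Sqle, the epoxidase that commits squalene to sterols, was highest of these steps in M2, with 409 and 749 units, against 354, 464 and 306 units in M0 (log2 difference 0.58, adjusted p = 0.165). Lss, which closes the lanosterol ring, differed by 0.50 in M1 (adjusted p = 0.0514). Of its other probe sets, both under 64 units on all arrays, 1 passed at 0.57 (adjusted p = 0.00757) and 1 gave -0.03 (adjusted p = 0.948). Hsd17b7 likewise did not pass with its brightest probe set, at 0.36 (adjusted p = 0.156), but passed as higher in M1 with 2 others at 0.44 (adjusted p = 0.0358) and 0.53 (adjusted p = 0.0148). The remaining enzymes, Cyp51, Tm7sf2 and Nsdhl, lay between 0.22 and 0.27 in M1 and between 0.04 and 0.48 in M2 and did not pass.

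Many of the enzymes varied together between arrays of the same condition. Fdps, farnesyl pyrophosphate synthase, measured 515, 610 and 1058 units on M1 arrays and 430 and 981 units on M2 arrays, against 584, 754 and 505 units on M0 arrays. The spread within a condition was therefore wider than any difference between conditions for this gene. M1 array 3 held the highest M1 value for 11 of the 15 enzymes, beside 29.2% of the 9856 named genes of at least 64 units. M2 array 2 was above M2 array 1 for 13 of the 15, beside 42.2% of those genes, and M0 array 3 was the lowest of M0 for 12 of the 15, beside 39.7%. These arrays were singled out after their values were seen. The median SD within conditions was 0.253 on the log2 scale for the enzymes and 0.128 for those named genes. Fdps, at 0.542, had a higher SD than 99.7% of them, Fdft1 than 99.5%, Cyp51 than 99.4% and Idi1 than 99.3%. Insig1 (SD 0.370) and Stard4 (SD 0.335), a sterol carrier that is an SREBP target, were also high on M1 array 3 and M2 array 2, at 231 and 208 units for Insig1 and 233 and 276 units for Stard4. Fasn (283 and 434 units), Srebf1 (812 and 813 units), Srebf2, Acaca, Scd1 and Scd2 were likewise highest of their condition on these arrays. Insig2 went the other way and was lowest on them, at 332 and 255 units. Among the 15 enzymes, Ebp and Dhcr7 were the exceptions in M2, at -0.06 each for array 2 minus array 1 on the log2 scale. Pmvk and Tm7sf2 moved little, at 0.01 and 0.15, beside 1.02 for Fdft1. The stroma gene Col1a2 was also high on M1 array 3 and M2 array 2, with 77.3, 81.9 and 196 units on the M1 and 81.6 and 155 units on the M2 arrays, against 82.7, 56.6 and 78.7 units on the M0 arrays. Col1a2 was named after its values were seen. Among the other stroma markers, Col1a1, Col3a1, Dcn and Postn were also highest of their condition on these arrays. Lum was highest on M1 array 1 instead, and Pdgfrb was lower on M2 array 2 than on M2 array 1. The condition means of Col1a1, Col3a1, Lum and Postn lay below the array median. The part of stroma cells in this pattern was not tested.

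**Figure D2:**
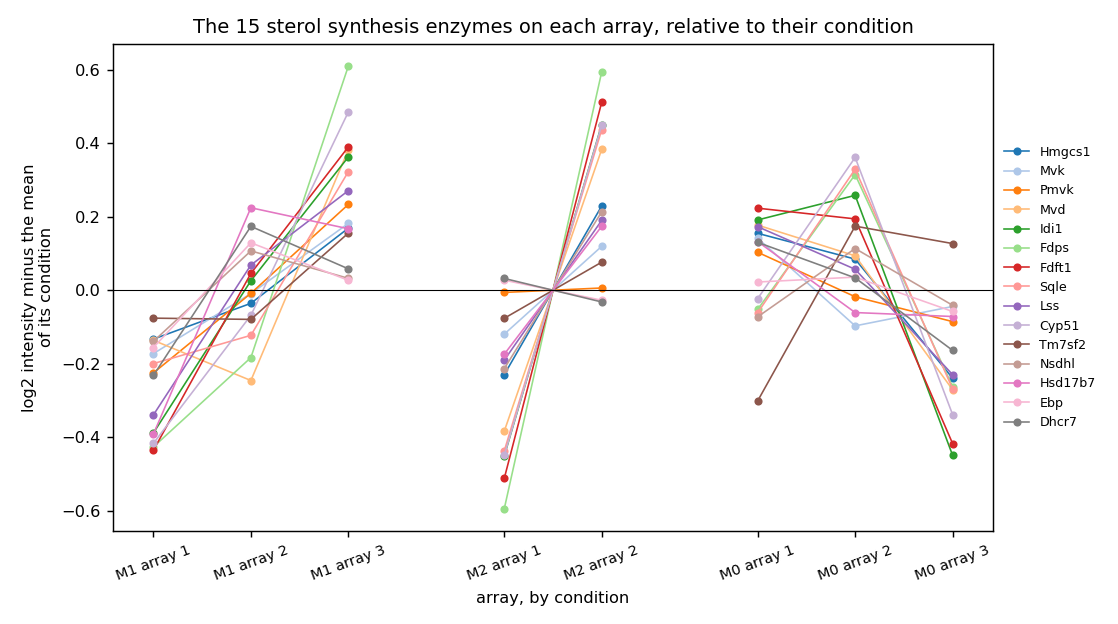
Log2 intensity of each of the 15 sterol synthesis enzymes on each array, minus the mean of its condition. Lines join the values of 1 gene. Most enzymes lie above 0 on M1 array 3 and M2 array 2 and below 0 on M1 array 1, M2 array 1 and M0 array 3.

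Of the 5 genes that sense sterol or encode SREBP factors, 1 was higher and 1 was lower in M1 than in M0, which is close to the 22.6% higher and 18.2% lower of named genes with at least 64 units. Insig2, the INSIG form that does not depend on SREBP, measured 384, 353 and 332 units in M1 and 310 and 255 units in M2, against 258, 277 and 266 units in M0. It was higher in M1 on every array, by 0.41 (SE 0.11, adjusted p = 0.0150), with all 3 probe sets passing at 0.38 to 0.41. The adjusted p was 0.0534 without M0 array 1 and 0.0638 without M1 array 1. Scap measured 381, 410 and 409 units in M1, against 536, 515 and 475 units in M0 (log2 difference -0.35, adjusted p = 0.0291). Its second, dimmer probe set gave 0.02 (adjusted p = 0.951), and without M0 array 1 or 2 or any 1 of the M1 arrays the adjusted p was 0.0501 to 0.103. Srebf1 and Srebf2, the genes of the SREBP factors, did not pass in either comparison, with 0.03 and -0.31 in M1 and 0.14 and 0.03 in M2. None of the 5 sensor genes passed in M2 in limma, adjusted or at an unadjusted p under 0.05, nor in the methods' t-test. Insig1 was the highest of them in M2, with 134 and 208 units, against 146, 162 and 117 units in M0 (log2 difference 0.25, adjusted p = 0.610).

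Apoe, Apoc1 and Mylip passed as lower than M0 in both activated states in limma, whereas the exporters Abca1 and Abcg1 passed as lower in neither. Of the 5 efflux and LXR target genes, 3 were lower and limma called 0 higher in M1, at either threshold, and 3 were lower and 1 was higher in M2. Of all named genes 11.5% were lower in M1 and 6.43% in M2, and of those with at least 64 units 18.2% and 10.5%. The methods' t-test passed 3 of the 5 in M1 with adjustment, and 0 with and 4 without adjustment in M2. The medians were -0.60 in M1 and -0.43 in M2, beside 0.22 and 0.12 for the synthesis enzymes. With 5 genes, the efflux median is the value of 1 gene, Mylip in M1 and Apoe in M2. It does not describe the exporters, since Abca1 differed by 0.21 in M1 and -0.37 in M2. Abcg1 differed by -0.05 in M1 and 0.75 in M2. Synthesis minus efflux, taken as the difference of these medians, was thus 0.81 in M1 and 0.55 in M2. Computed on single arrays it was 0.49, 0.62 and 1.01 on M1 and 0.41 and 0.95 on M2 arrays, against 0.25, 0.02 and -0.27 on M0 arrays. Each activated array was above each M0 array. The efflux side was -0.58, -0.49 and -0.61 on M1 and -0.47 and -0.54 on M2 arrays, apart from -0.12 to 0.08 on M0 arrays, whereas the synthesis side overlapped between the conditions.

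**Figure D3:**
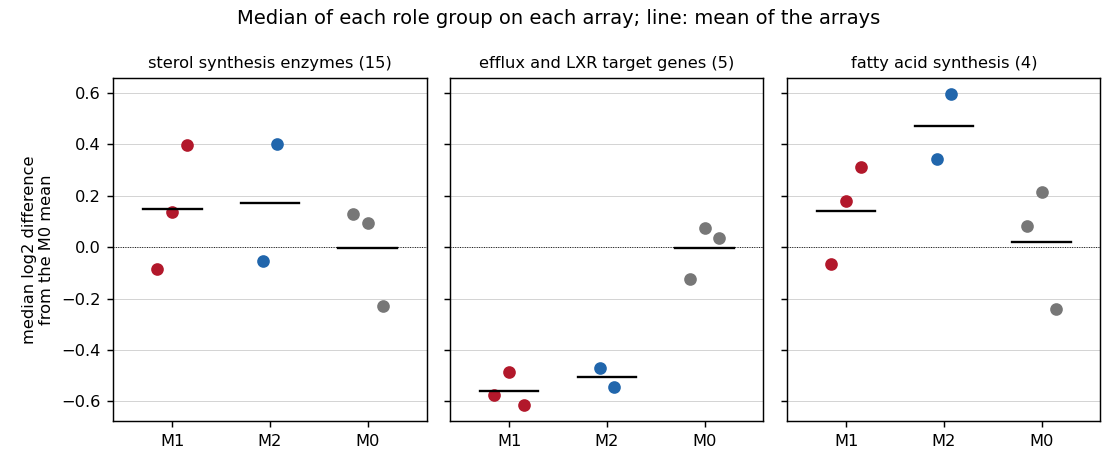
Median log2 difference from the M0 mean for the 15 sterol synthesis enzymes, the 5 efflux and LXR target genes and the 4 fatty acid synthesis genes. Points are arrays and lines are means of a condition. Efflux medians of M1 and M2 arrays lie at -0.61 to -0.47, below all M0 arrays, while synthesis medians overlap.

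Apoe, the apolipoprotein that macrophages secrete as an acceptor of cholesterol, was among the brightest genes of the list, with 9990, 12511 and 11443 units in M1 and 14014 and 12020 units in M2, against 17260, 17494 and 17829 units in M0. Both activated groups lay below M0 without overlap. The log2 difference was -0.64 (adjusted p = 0.00111) in M1 and -0.43 (adjusted p = 0.0390) in M2. The M2 call was lost when any M0 or M2 array was left out, with adjusted p of 0.0528 to 0.237. Apoc1, a small apolipoprotein, measured 32.8, 35.8 and 35.1 units in M1 and 38.2 and 38.1 units in M2, against 75.9, 100.0 and 149 units in M0 (log2 differences -1.59 and -1.45, adjusted p = 5.76e-05 and 0.000607). Only its M0 arrays were above the array median, and with a lower limit of 64 units the differences were both -0.70 and neither passed (adjusted p = 0.199 and 0.342). Apoe and Apoc1 lie beside Apoc4 and Apoc2 on chromosome 7 in GRCm38.p6. Apoc2, the cofactor of lipoprotein lipase, was lower in M2 with 130 and 89.1 units, against 638, 602 and 793 units in M0 (log2 difference -2.64, adjusted p = 3.82e-06), and did not pass in M1 at -0.54 (adjusted p = 0.0554). Apoc4, named here for its place only, did not pass at -0.28 in M1 and -0.33 in M2.

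Mylip, a ubiquitin ligase and LXR target that lowers sterol uptake, measured 1254, 1296 and 1160 units in M1 and 965 and 942 units in M2, against 1713, 2000 and 1900 units in M0. It was lower in M1 by -0.60 (adjusted p = 0.00088) and in M2 by -0.97 (adjusted p = 0.000106), and M1 was higher than M2 by 0.37 (adjusted p = 0.0344, or 0.0508 to 0.129 without M0 array 2 or 3, M1 array 1 or 2, or either M2 array). The 3 conditions did not overlap. Of the transporters, Abcg1 passed in M2 and Abca1 against M0 in neither state. Abcg1, which moves cholesterol to high density lipoprotein, measured 2775, 3155 and 2397 units in M1 and 4702 and 4905 units in M2, against 2634, 3002 and 2920 units in M0. Both M2 arrays were above all others, by 0.75 over M0 (SE 0.13, adjusted p = 0.00211), and M1 was lower than M2 by -0.80 (adjusted p = 0.000713). A second Abcg1 probe set also rose in M2 at 0.80 (adjusted p = 0.00123), but fell in M1 at -0.72 (adjusted p = 0.000551), where the brighter one gave -0.05 (adjusted p = 0.858). Abca1, which exports cholesterol to lipid-poor apolipoprotein A-I, measured 7140, 6429 and 6414 units in M1 and 4144 and 4731 units in M2, against 4863, 6126 and 6343 units in M0. It did not pass against M0 in M1 (0.21, adjusted p = 0.280) or M2 (-0.37, adjusted p = 0.101), but M1 was higher than M2 by 0.59 (adjusted p = 0.00792, or 0.0881 without M2 array 1), a call that the other 2 probe sets did not give (adjusted p = 0.15 and 0.128).

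**Figure D4:**
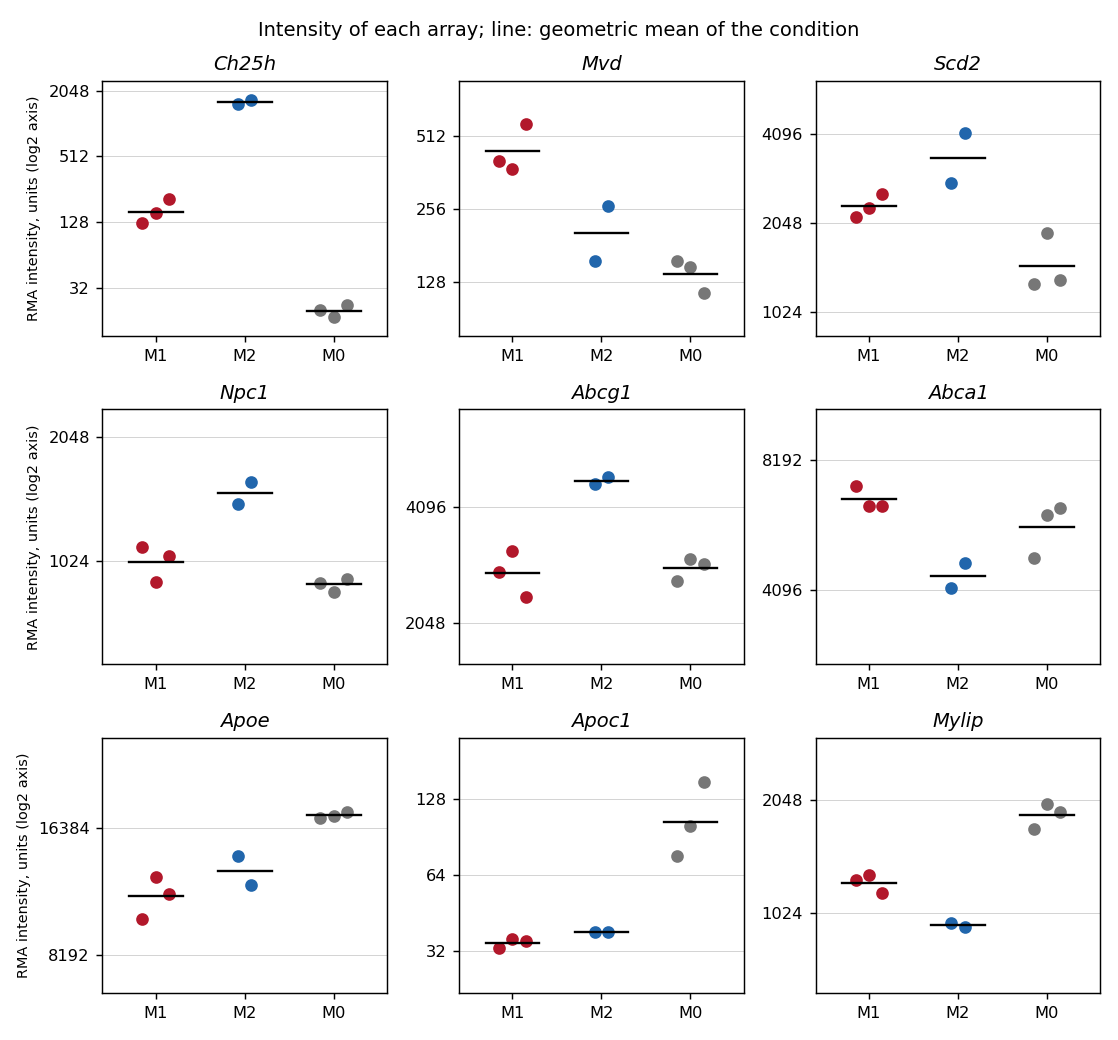
RMA intensity in units (log2 axis, each panel on its own scale) of 9 genes on each array of M1, M2 and M0 macrophages. Points are arrays and lines are geometric means. Ch25h is highest in M2 at 1557 and 1670 units, Mvd is highest in M1, Abcg1 and Npc1 are highest in M2, and Apoe, Apoc1 and Mylip are highest in M0.

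Of the 3 sterol transport genes measured, Npc1 passed as higher in M2. Npc1, the membrane protein that releases lysosomal cholesterol, measured 1411 and 1593 units in M2, against 909, 863 and 929 units in M0. It was higher in M2 by 0.74 (SE 0.12, adjusted p = 0.00142), and M1, with 1111, 912 and 1053 units, was lower than M2 by -0.55 (adjusted p = 0.00539, or 0.0580 without M2 array 2). Npc2, its soluble partner, was among the brightest genes and measured 16672, 16191 and 15946 units in M1 and 13399 and 12707 units in M2, against 16372, 15637 and 15928 units in M0. It did not pass in M2 against M0 (-0.29, adjusted p = 0.0878), but M1 was higher than M2 by 0.32 (adjusted p = 0.0457), a call that was lost when any 1 of the 8 arrays was left out (adjusted p = 0.0590 to 0.175). For M1 against M2 the other Npc2 probe sets gave 0.49 (adjusted p = 0.00677), -0.20 (adjusted p = 0.526) and 0.21 (adjusted p = 0.564). Stard4 was the lowest of these genes in M1, with 142, 167 and 233 units, against 222, 280 and 216 units in M0 (log2 difference -0.43, adjusted p = 0.172). In M1 none of the 3 passed in limma, at an unadjusted p under 0.05 or in the methods' t-test.

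Of the 4 fatty acid genes, Scd2 passed as higher in both activated states and no other gene passed against M0. This is 25% higher in each state, beside 22.6% in M1 and 12.9% in M2 of named genes with at least 64 units. All 4 differences were above 0 in M2, where the median of all named genes was also above 0, at 0.01. The second probe set of Scd1 was below 0 in M2, at -0.19. Scd2, a stearoyl-CoA desaturase that makes monounsaturated fatty acids, measured 2143, 2298 and 2570 units in M1 and 2790 and 4111 units in M2, against 1277, 1898 and 1314 units in M0. The activated arrays did not overlap M0. The log2 difference was 0.66 (SE 0.17, adjusted p = 0.0155) in M1 and 1.20 (SE 0.19, adjusted p = 0.00133) in M2, and all 3 probe sets passed in both. In M1 the adjusted p was 0.0621 to 0.0667 without M0 array 1 or 3 or M1 array 3. The related Scd1, at 25.0 to 50.3 units on all arrays, was near the array median and did not pass. Fasn, the fatty acid synthase, measured 177, 240 and 283 units in M1 and 353 and 434 units in M2, against 320, 319 and 253 units in M0. Neither state passed against M0 (-0.37, adjusted p = 0.162 in M1, and 0.41, adjusted p = 0.206 in M2), while M1 was lower than M2 by -0.77 (adjusted p = 0.0104, or 0.110 without M2 array 2). Acaca, which makes malonyl-CoA, differed by 0.30 in M1 and 0.48 in M2 (adjusted p = 0.186 and 0.0792). Adipoq, an adipocyte gene, was higher in M2, with a mean of 31.6 units on its M2 arrays and 8.26 units in M0 (adjusted p = 8.67e-05), both below the array median, so that the size of the difference is uncertain, while Cidec, Lep and Retn did not pass, and its part in these results was not tested.

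Directly compared, M1 exceeded M2 for 5 of the 33 genes (Mvd, Fdft1, Npc2, Abca1 and Mylip) and was lower for 4 (Npc1, Abcg1, Ch25h and Fasn). These shares of 15.2% and 12.1% stand beside 11.5% higher and 12.3% lower of all named genes. Both were smaller than the 18.5% and 19.3% of named genes with at least 64 units. This contrast is the test of whether the responses differ, and for Insig2, Ebp, Dhcr7, Scap, Scd2, Apoe and Apoc1 it did not pass, with adjusted p of 0.0539 to 0.734.

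Further genes of the same pathways were read from lists. Of 10 other SREBP targets, 3 were higher and 1 was lower in M1, with a median of 0.09. For this and the next lists, the shares of all named genes were 13.7% higher and 11.5% lower in M1 and 8.03% and 6.43% in M2, and of those with at least 64 units 22.6% and 18.2% in M1 and 12.9% and 10.5% in M2. Rdh11, a retinol dehydrogenase, measured 400, 403 and 395 units in M1, against 180, 246 and 206 units in M0 (log2 difference 0.94, adjusted p = 9.48e-05). Ggps1, which turns farnesyl into geranylgeranyl pyrophosphate, was higher by 1.14 (adjusted p = 5.76e-06) and Sc5d, a late desaturase, by 0.77 (adjusted p = 0.00626). Lpin1, a phosphatidate phosphatase, was lower, with 65.0, 88.6 and 51.3 units in M1, against 227, 279 and 322 units in M0 (log2 difference -2.04, adjusted p = 6.02e-06). In M2 limma called none of the 10, with 1 higher at an unadjusted p under 0.05 (Aacs) and 0 in the methods' t-test at either threshold. Of 17 other fatty acid synthesis genes, 4 were higher and 1 was lower in M1, and 1 was higher and 1 was lower in M2. The 4 higher in M1 are near the share of those brighter genes, and the other counts are below it. Me1, malic enzyme, which supplies NADPH, was higher in M1 by 1.21 (adjusted p = 1.36e-05), and Acss2, which activates acetate, was lower in M2 by -1.03 (adjusted p = 0.00113). Fads3, a desaturase family member, was lower in M1 by -0.61 (adjusted p = 0.00136) and higher in M2 by 0.77 (adjusted p = 0.00113).

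Of 15 other LXR and efflux genes, 1 was higher and 8 were lower in M1 (median -0.54), and limma called 0 higher, also at an unadjusted p under 0.05, and 8 lower in M2 (median -0.52), where the methods' t-test passed 1 with and 9 without adjustment. Beside the 8 lower genes in each, 11.5% of all named genes were lower in M1 and 6.43% in M2. Nr1h3, which encodes LXR alpha, measured 524, 837 and 738 units in M1 and 223 and 223 units in M2, against 469, 361 and 373 units in M0. It was higher in M1 by 0.79 (adjusted p = 0.00367) and lower in M2 by -0.83 (adjusted p = 0.00937). Lrp1, a receptor for Apoe-bearing particles, was lower in both, with 828, 896 and 746 units in M1 and 1351 and 1154 units in M2, against 2702, 2728 and 2480 units in M0 (log2 differences -1.68 and -1.08, adjusted p = 4.17e-07 and 8.83e-05). Pltp, phospholipid transfer protein, was lower by -1.22 (adjusted p = 1.26e-05) in M1 and -0.52 (adjusted p = 0.0239) in M2. Abca9, at 24.4 to 27.4 units in M1 and 41.0 and 46.0 units in M2, against 94.9, 130 and 110 units in M0, was also lower in both (-2.09 and -1.35, adjusted p = 1.86e-07 and 3.64e-05). Its M1 values were below the array median and its M2 values near it, so that the sizes of these differences are uncertain. Mertk, an LXR target that also stands among the macrophage markers, was lower by -0.85 in M1 and -1.08 in M2 (adjusted p = 0.000385 and 3e-04).

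Of 16 other oxysterol, ester and sterol carrier genes, 3 were higher and 7 were lower in M1, and 1 was higher and 5 were lower in M2. The higher genes were a smaller share than the 22.6% in M1 and 12.9% in M2 of named genes with at least 64 units, of which 18.2% and 10.5% were lower. Lipa, the lysosomal acid lipase that frees cholesterol from esters, measured 1904, 2074 and 1647 units in M1 and 6005 and 5516 units in M2, against 6991, 7104 and 6927 units in M0. It was lower in M1 by -1.91 (adjusted p = 1.3e-07) and did not pass in M2 at -0.28 (adjusted p = 0.164). Cav1, which encodes the cholesterol-binding caveolin, was higher in both, with 144, 111 and 179 units in M1 and 143 and 218 units in M2, against 48.0, 36.2 and 33.6 units in M0 (log2 differences 1.87 and 2.19, adjusted p = 2.61e-05 and 3.76e-05). Gramd1a, which carries sterol from the plasma membrane to the endoplasmic reticulum, was higher in M1 by 1.36 (adjusted p = 4.12e-06) and lower in M2 by -0.74 (adjusted p = 0.00248).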

How the data were processed

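Affymetrix mouse arrays of M1 (3), M2 (2) and M0 (3) macrophages were analysed. The authors normalized the arrays with RMA in GenePattern and deposited intensity values on a linear scale for 45101 probe sets. From these, the log2 was taken, 64 control probe sets were left out and 45037 were tested with limma 3.58.1 in R 4.3.3 (lmFit and eBayes, all 8 arrays, a mean per condition, no covariate). The fit left 5 residual degrees of freedom, with 6.95 from the prior. P-values are two-sided and Benjamini-Hochberg adjusted over all 45037, and a gene was called at an adjusted p under 0.05. RMA compresses differences of dim probe sets, and the number of arrays limits the precision. The procedure was tested on simulated data.

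The annotation gives 1 symbol to 34945 probe sets, several to 932 and none to 9160. Per-array values are given for members called with at least a 2-fold change and for the highest and lowest of each role group, and up to 4 genes of each pathway list are named; others were named after their values were seen. Of 139 entries in 13 other lists, 122 were found and the others were not analysed here. The members and lists were chosen with earlier results of these data known. Motifs were searched in RefSeq windows of 300 bases, at hand for 25 of the 34 genes.

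Replicate numbers were not treated as pairs, since the titles do not say whether equal numbers are cells of the same mouse. Deviations from the condition mean correlated at -0.172 to 0.055 for arrays with the same number (7 pairs) and at -0.15 to 0.19 for others (14 pairs). This cannot decide on pairing, because the deviations of the 2 M2 arrays mirror each other. A replicate block lost the calls of Dhcr7 and Scap in M1, Apoe in M2, and Npc2 and Mylip between M1 and M2. Alternatives were the methods' t-test, a fit of the compared groups only, an intensity trend with robust variances, a replicate block, median centring, quantile normalization, a floor of 64 units, other thresholds and probe sets, and each array left out. Plots came from matplotlib 3.10.9 under Python 3.11.15.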

Additional observations from a re-analysis of the deposited data

How the results depend on the processing

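Of 27 calls of single genes in the 3 contrasts, the settings turned the direction of 1, Scap in M1 with its second probe set, at 0.018. Differences that did not pass were not rerun, and the second probe set had the other sign for Lss (-0.03) and Srebf2 (0.02) in M1 and for Abca1 (0.07), Stard4 (0.04) and Scd1 (-0.19) in M2, among others. Of the 27 calls, the replicate block kept 22, median centring 24 and the mean of all probe sets 22. For genes higher in M1 than in M0 (5), the count was 3 with the adjusted methods' t-test, and 2 with a floor of 64 units, an adjusted p under 0.01 or a 2-fold limit. For genes lower in M1 than in M0 (6), it was 3 with the floor, 3 at an adjusted p under 0.01 and 1 with the 2-fold limit. For genes higher in M2 than in M0 (4), it was 1 with the adjusted methods' t-test and 2 with the 2-fold limit. For genes lower in M2 than in M0 (3), it was 0 with the adjusted and 5 with the unadjusted methods' t-test (the unadjusted one was added after seeing the data), 5 with the intensity trend and 1 with the 2-fold limit. For genes higher in M1 than in M2 (5), it was 0 with the adjusted methods' t-test, where 3 passed unadjusted, 3 with only the compared groups, 3 with the replicate block, 1 with the floor, 2 at an adjusted p under 0.01, 2 with the 2-fold limit and 3 with the mean of all probe sets. For genes lower in M1 than in M2 (4), it was 1 with the adjusted methods' t-test and 1 with the 2-fold limit. The cause of these shifts was not tested, apart from stricter limits, which keep fewer genes.

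Leaving out 1 array at a time gave 3 to 6 genes higher and 3 to 6 lower in M1 than in M0, 4 to 6 higher and 2 to 3 lower in M2 than in M0, and 1 to 4 higher and 2 to 5 lower in M1 than in M2. Synthesis minus efflux ranged from 0.561 to 0.892 in M1 and from 0.414 to 0.946 in M2 in the same way, the last 2 being the values without M2 array 2 and without M2 array 1. Quantile normalization moved the count in M1 to 4 higher and 6 lower. Dim genes such as Ch25h in M0, Apoc1 and Abca9 in M1 and M2, and Scd1 are limited by signal over background.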

Other observations

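Of 9 genes that process SREBP precursors or degrade INSIG proteins, 2 passed as higher in M1, which is about the 22.6% of named genes with at least 64 units. Ufd1, a cofactor of the segregase Vcp, measured 460, 568 and 456 units in M1, against 325, 344 and 310 units in M0 (log2 difference 0.59, adjusted p = 0.0019 in limma). Sar1b, a GTPase of the vesicles that leave the endoplasmic reticulum, was higher by 0.36 (adjusted p = 0.0210). In M2 limma called none of the 9, with 1 higher and 2 lower at an unadjusted p under 0.05, and the methods' t-test passed 0 with and 4 without adjustment. Mbtps1, the first protease that cuts SREBP, was lower in M1 than in M2 by -0.45 (adjusted p = 0.00826) and passed against M0 in neither state.

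Probe sets of 1 gene did not always give the same call. For Npc2 another probe set was lower by -0.84 in M1 (adjusted p = 0.00153) and -0.65 in M2 (adjusted p = 0.0270), where the brightest gave 0.03 and -0.29. For Abca1 the other probe sets gave 0.87 and 0.96 in M1 (adjusted p = 0.0718 and 0.0681), against 0.21 for the brightest, and 0.07 and 0.05 in M2, against -0.37.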
